A study of Mus musculus with 3 samples.

Results

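The 10 genes described here are the contractile genes of the myoid and vascular cells of the mouse testis: Acta2, Myh11, Actg2, Cnn1, Des, Tpm2, Myl9, Tagln, Tnnt2 and Rgs5. They were chosen by name from the 36593 genes of the 3 count tables, and all 10 were measured in each table. They were followed in vascular smooth muscle-like cells, most of which held Rgs5, in myoid-like cells, nearly all of which did not, and in the other testicular cells. These classes were clusters made without the 10 genes. Each table holds 1 library of single testis cells of C57BL/6 mice. The paper names 3 mice for the Tomato-depleted cells and 3 pairs of cKO and control mice, and does not state how their cells were combined. The mice of the Tomato-depleted library were 8 weeks old and carried Ddx4-creER and R26tdTomato, with which germ cells turn red after tamoxifen, and the red cells were sorted away. The control mice were 6 weeks old and had floxed Scf alleles (Scf fl/fl). The cKO mice, also 6 weeks old, had Amh-cre beside the same Scf fl/fl alleles, so that Scf (the Kit ligand) is deleted in Sertoli cells, where this Cre is active, and not by design in the contractile cells. Haploid germ cells were sorted away from the control and cKO cells, so the Tomato-depleted library differs from both in age, genotype, sort and the tamoxifen given.

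Smooth muscle contracts when myosin filaments, made of a heavy chain such as Myh11 and light chains such as Myl9, pull on actin filaments made of Acta2 and Actg2. Tropomyosins such as Tpm2, the calponin Cnn1 and transgelin (Tagln) lie along or bind the actin filament, and desmin (Des) is the intermediate filament that ties the contractile bundles together. Tnnt2 encodes troponin T of heart muscle, which anchors the troponin complex to tropomyosin. Rgs5 shortens G protein signalling and is a common marker of pericytes and vascular smooth muscle. In the testis, peritubular myoid cells form the wall of the seminiferous tubule and squeeze it, while vascular smooth muscle and pericytes surround the blood vessels. Many smooth muscle genes are switched on by serum response factor, which binds a DNA motif called the CArG box.

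On GRCm38 (GENCODE vM21, 1-based), Acta2 lies at chr19:34241090-34255590 on the minus strand, Myh11 at chr16:14194535-14291372 (minus), Actg2 at chr6:83512905-83536265 (minus) and Cnn1 at chr9:22099216-22109630 (plus). Des lies at chr1:75360329-75368579 (plus), Tpm2 at chr4:43514711-43523765 (minus), Myl9 at chr2:156775420-156781658 (plus) and Tagln at chr9:45929619-45936058 (minus). Tnnt2 lies at chr1:135836354-135852260 and Rgs5 at chr1:169655501-169695813, both on the plus strand. All 10 are annotated as protein-coding.

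Because the members are high in the same cell classes, their RefSeq promoters (250 bases before to 50 after the start, GRCm38.p6) were searched for the CArG box, a motif that reads the same on both strands. Promoters were given for 7 of the 10 genes. A full CArG box was found in the promoter of Myl9 alone, against 1.63% of all 32851 promoters. With 1 middle base other than A or T allowed, which was chosen after the first search, Myl9 and Acta2 held matches, against 9.98% of all promoters. Beside its full box, Myl9 held a further match with 1 middle base other than A or T, which ends 90 bases before the start and is not printed. The 3 stretches below are given 5′ to 3′ on the strand of the gene, with the match in capitals. The first ends its match 152 bases before the start of Myl9, and the matches of the others end 75 and 25 bases before the start of Acta2. These are the RefSeq starts, which lie inside the GENCODE spans given above, so that both Acta2 matches fall within the GENCODE span of the gene.
Myl9, full box, chr2:156775278-156775337, plus strand: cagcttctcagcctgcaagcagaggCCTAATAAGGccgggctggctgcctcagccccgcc
Acta2, 1 middle base differs, chr19:34255423-34255482, minus strand: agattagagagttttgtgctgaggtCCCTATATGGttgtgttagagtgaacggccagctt
Acta2, 1 middle base differs, chr19:34255373-34255432, minus strand: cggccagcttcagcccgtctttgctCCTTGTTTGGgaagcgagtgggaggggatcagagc
These matches are letters in a sequence, and binding was not measured.

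The libraries held 195380762 UMIs in 7626 cells (Tomato-depleted), 90453018 in 6264 (control) and 68602272 in 7252 (cKO). After limits on genes and mitochondrial counts per cell, 2159, 3637 and 4545 cells were left, of which 1067, 933 and 4080 were somatic. Clustering without the 10 genes gave 159, 613 and 2047 myoid-like cells and 238, 39 and 146 vascular smooth muscle-like cells, in the same order of libraries. Between 9 and 15 cell barcodes were shared by any 2 libraries. A level is the summed UMIs of a gene in a class scaled to the UMIs of that class (CPM). A 3′ UMI counts a transcript once whatever its length, so levels were not scaled to gene length. Whether transcripts of different genes were captured equally well was not measured, so comparisons between genes are of UMI counts. With 1 library per group there are no replicates, no test across samples was possible, and all 95% intervals (exact Poisson, Clopper-Pearson or conditional binomial) cover counting error only.

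The classes were named from marker lists, so these markers are no check on the names. The 10 myoid markers summed to 9708, 10370 and 9571 CPM in myoid-like and to 7721, 8618 and 7230 in vascular smooth muscle-like cells, and 0 of them were among the 10 leading genes of the myoid-like cluster. Rgs5 had 2 UMIs in the myoid-like cells of the Tomato-depleted library, 0 in control and 2 in cKO. In vascular smooth muscle-like cells its level was 1498 CPM in the Tomato-depleted library, 1715 in control and 2885 in cKO. In control this was at least 1802-fold higher than in myoid-like cells, taking 3 counts as the limit of a count of 0, and the counting interval of this ratio began at 1455. In the Tomato-depleted library the 95% interval of the ratio ran from 245 to 7308, and in cKO from 4515 to 134931. An Rgs5 UMI was found in 82.8%, 74.4% and 80.1% of the vascular cells, against 1.26%, 0% and 0.0977% of the myoid-like cells, in the same order. The 0 of 613 control myoid-like cells allows a share of up to 0.489% (3 cells), a limit on cells with a UMI and not on cells that express the gene. Rgs5 therefore separated the classes in all 3 libraries although it was not used to make them, but the classes come from the other genes of the same cells, so their differences are a description.

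**Figure D1:**
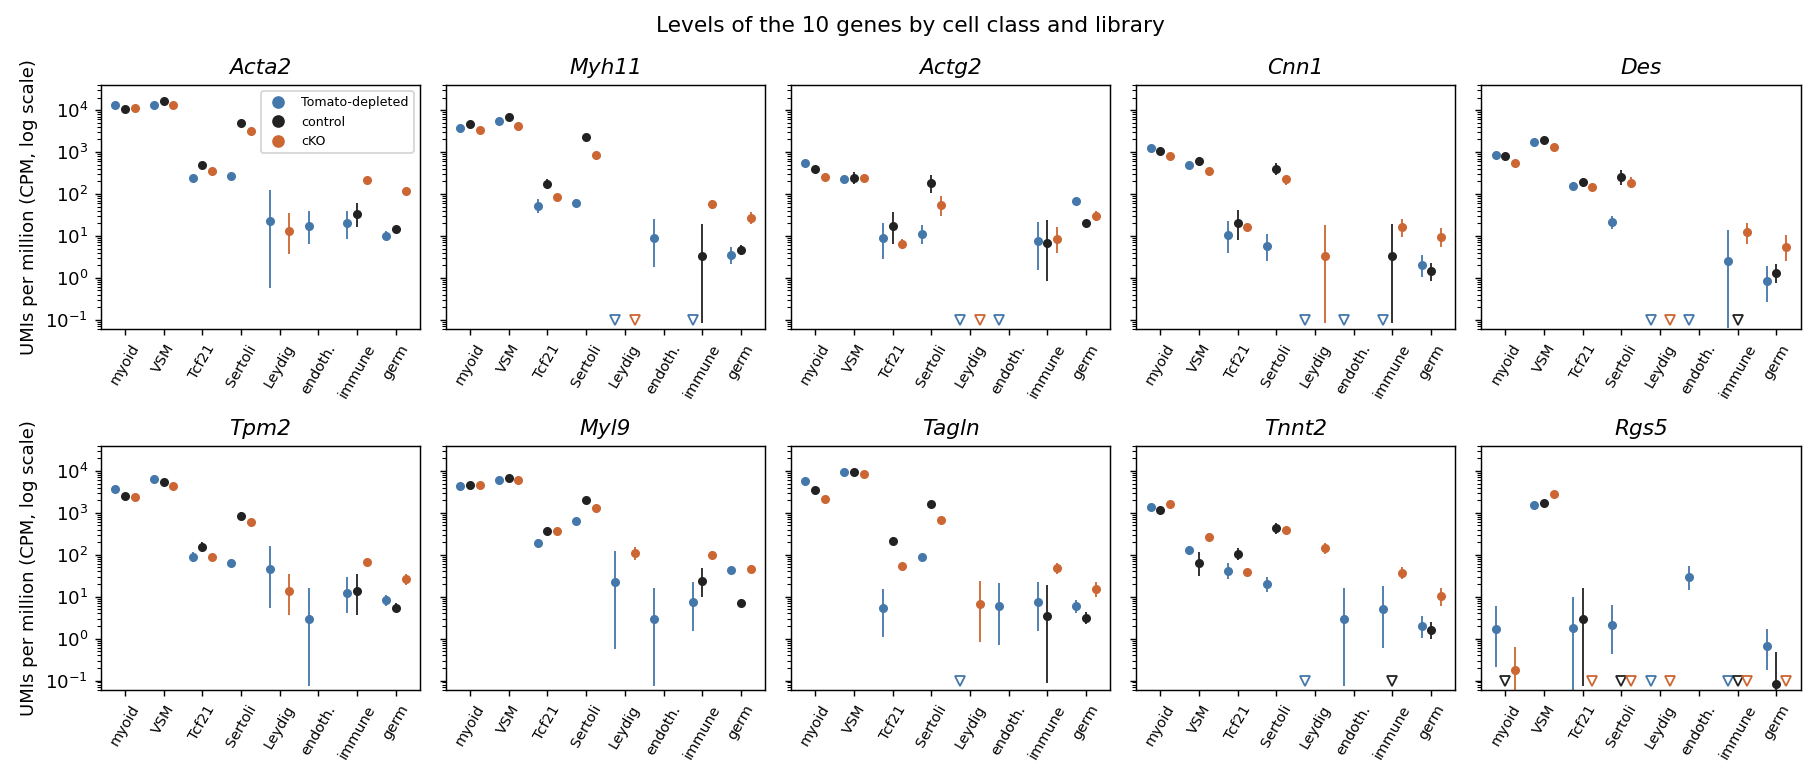
Level of each of the 10 genes (CPM, log axis) in each cell class (x axis) and library (colour), for classes with at least 20 cells in the library. Points carry 95% Poisson intervals, cut off at the lower edge, and open triangles on the lower edge mark a count of 0. The first 9 genes are high in myoid and vascular smooth muscle (VSM) cells, and Rgs5 in VSM cells; the Sertoli-like cells of control and cKO stand high for the 9 genes.

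Together the 9 genes other than Rgs5 made up 3.50%, 2.98% and 2.69% of all UMIs of myoid-like cells in the Tomato-depleted, control and cKO libraries. In vascular smooth muscle-like cells they made up 4.35%, 4.72% and 3.85%. Acta2, the smooth muscle alpha-actin, was the highest of the 10 in both classes and all libraries, with 30.2% to 41.2% of the UMIs of the 9 genes.

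Acta2 and the myosin genes were high in both classes. In myoid-like cells Acta2 stood at 13382 CPM in the Tomato-depleted library, 10876 in control and 11109 in cKO, and in vascular smooth muscle-like cells at 13133, 16177 and 13013. The vascular level was thus 0.981-fold (95% interval 0.961 to 1.002), 1.49-fold (1.43 to 1.55) and 1.17-fold (1.147 to 1.196) that of myoid-like cells, with no common direction. Where contractile cells were instead divided by an Rgs5 UMI, the log2 ratio in cKO lay on the other side of 0, at -0.055. Myh11, the smooth muscle myosin heavy chain, was at 3737, 4659 and 3372 CPM in myoid-like cells and at 5585, 6689 and 4156 in vascular cells. The vascular cells were higher in every library, by 1.23-fold to 1.49-fold. Myl9, the regulatory light chain, was at 4378, 4618 and 4702 CPM in myoid-like cells and at 6153, 6611 and 6002 in vascular cells, which were 1.28-fold to 1.43-fold higher.

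Des, Tpm2 and Tagln were higher in the vascular cells by at least 1.5-fold in every library. Des, the intermediate filament, was at 875, 824 and 562 CPM in myoid-like and 1769, 1903 and 1348 in vascular cells, a ratio of 2.02 (95% interval 1.88 to 2.18), 2.31 (2.04 to 2.61) and 2.40 (2.24 to 2.56). Tpm2, a tropomyosin, was at 3680, 2549 and 2418 CPM in myoid-like and 6358, 5416 and 4448 in vascular cells, a ratio of 1.73, 2.13 and 1.84. Tagln was at 5733, 3593 and 2130 CPM in myoid-like and 9662, 9482 and 8650 in vascular cells. Its ratio was 1.69 (1.64 to 1.74) in the Tomato-depleted, 2.64 (2.50 to 2.79) in the control and 4.06 (3.95 to 4.17) in the cKO library, and its vascular level varied less between libraries than its myoid level. With contractile cells divided by an Rgs5 UMI instead, the log2 ratios in the Tomato-depleted library were 0.42 for Des, 0.36 for Tpm2 and 0.45 for Tagln, all under 1.5-fold, and Tpm2 was also under it in control (0.52) and cKO (0.46).

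Tnnt2 and Cnn1 were higher in myoid-like cells. Tnnt2, a troponin subunit best known from heart muscle, was at 1372, 1201 and 1590 CPM in myoid-like cells and at 128, 64.9 and 270 in vascular cells. The vascular level was 0.0934-fold (95% interval 0.0798 to 0.108), 0.0568-fold (0.0259 to 0.0996, on 10 vascular counts) and 0.170-fold (0.147 to 0.195) the myoid level. A Tnnt2 UMI was found in 96.2%, 96.2% and 97.8% of myoid-like cells and in 30.7%, 20.5% and 31.5% of vascular cells. Thinned to 1000 UMIs per cell, which leaves out shallower cells, these shares were 74.1%, 67.5% and 75.4% against 8.82%, 7.69% and 19.4%. Tnnt2 was thus the member that most set myoid-like apart from vascular cells, the reverse of Rgs5. Cnn1, a calponin, was at 1252, 1048 and 794 CPM in myoid-like and 498, 610 and 355 in vascular cells, a ratio of 0.398, 0.585 and 0.447. Actg2, the enteric smooth muscle actin, was at 564, 403 and 255 CPM in myoid-like and 233, 247 and 247 in vascular cells. Its ratio was 0.413 (0.362 to 0.471), 0.620 (0.431 to 0.845) and 0.973 (0.832 to 1.13), so that in cKO the summed levels did not differ beyond counting error. The share of cKO cells with an Actg2 UMI did differ, at 57.2% of myoid-like and 27.4% of vascular cells, or 20.3% and 10.4% when thinned. Over 12 alternatives the log2 ratio of Actg2 in cKO ran from -1.12 to -0.010.

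In all, 4 members were at least 1.5-fold higher in vascular cells in the Tomato-depleted library and 3 at least 1.5-fold lower, against 20.4% and 22.1% of the 4226 genes with at least 100 counts. In control the counts were 4 and 3, against 17.6% and 28.2% of genes, and in cKO 4 and 2, against 17.3% and 22.7%. The members past this fold upward were Des, Tpm2, Tagln and Rgs5 in each library. Rgs5 was chosen beforehand as the gene that tells these classes apart, so only Des, Tpm2 and Tagln can be set beside the share of all genes. Divided by an Rgs5 UMI instead, 1 member was higher in the Tomato-depleted library, Rgs5 itself, which that division fixes, and centred on the median of all genes 7 were higher in control. The dissociation stress genes, which respond to tissue digestion, had a summed level of 11161, 15983 and 21178 CPM in vascular cells against 24680, 22199 and 26816 in myoid-like cells. Of those with at least 100 counts, 8 of 13, 5 of 13 and 3 of 14 were at least 1.5-fold lower in vascular cells and 1 higher in each library. All 14 were above 0 in both classes of each library but for the control vascular cells, where Hspa1b was at 0. Their part in the differences was not tested.

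**Figure D2:**
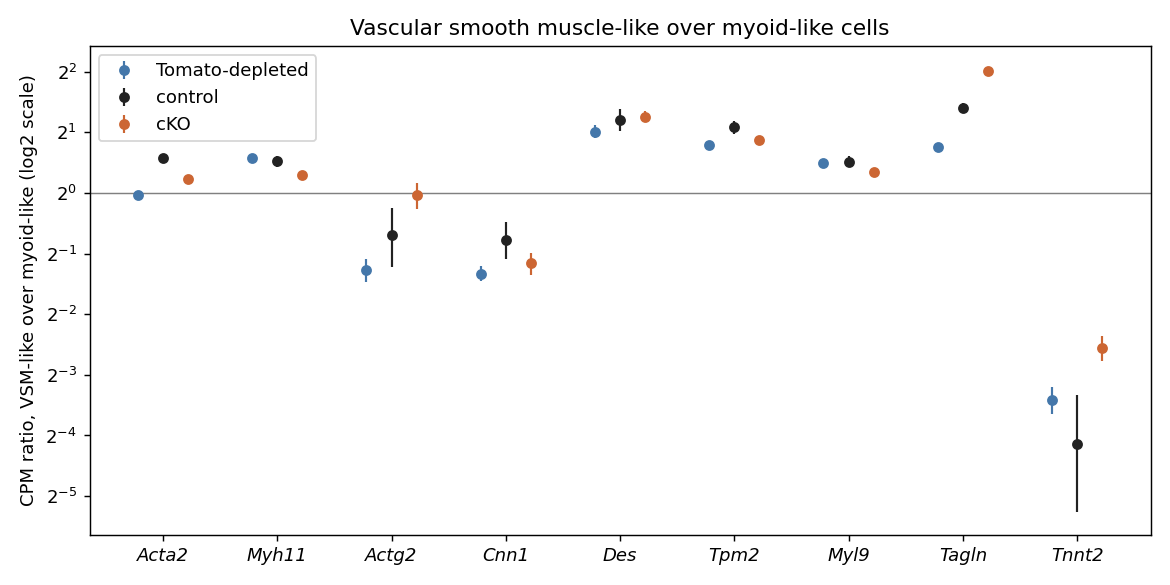
Ratio of CPM in vascular smooth muscle-like over myoid-like cells (y axis, log2 scale) for 9 genes (x axis) and 3 libraries (colour), with 95% counting intervals. Des, Tpm2, Tagln, Myh11 and Myl9 lie above 1 and Cnn1 and Tnnt2 below 1 in all 3 libraries, while Actg2 reaches 0.973 in cKO and Acta2 lies on both sides of 1.

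A wider list of 61 contractile and cytoskeletal genes was compared in the same way. Of its genes with at least 100 counts, 16 of 52, 13 of 50 and 17 of 55 were at least 1.5-fold higher in vascular cells and 11, 12 and 11 at least 1.5-fold lower. Over all genes with at least 100 counts, 20.4%, 17.6% and 17.3% were higher and 22.1%, 28.2% and 22.7% lower. The list's median log2 ratio was 0.07, 0.18 and 0.34, beside -0.03, -0.08 and -0.03 over all genes. Higher in all 3 libraries were 8, led by Ppp1r12a (the myosin phosphatase targeting subunit), Rock1 (a protein kinase) and Mustn1, and lower in all 3 were 7, led by Actg1 (a cytoplasmic actin), Fhl2 and Nexn. Rock1 was at 207, 218 and 202 CPM in myoid-like and 936, 844 and 675 in vascular cells. Fhl2, a LIM protein, was at 949, 1586 and 1648 CPM in myoid-like and 76.9, 97.4 and 167 in vascular cells, but it was one of the markers by which myoid clusters were named. Of the regulators, transcription factors of the smooth muscle programme, 8, 12 and 14 had at least 100 counts. Of these, 2, 3 and 2 were at least 1.5-fold higher in vascular cells and 3, 4 and 2 lower, with median log2 ratios of -0.40, -0.21 and -0.04. In all 3 libraries Mef2c was 7.44-fold, 8.02-fold and 6.45-fold higher in vascular cells, and Ebf1 2.19-fold, 2.86-fold and 2.45-fold. Foxs1 was lower in vascular cells in all 3 libraries, at 0.357-fold, 0.475-fold and 0.620-fold.

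Acta2 varied more from cell to cell among vascular than among myoid-like cells. In cells thinned to 1000 UMIs, the 10th and 90th percentiles of Acta2 were 6 and 21 UMIs in the Tomato-depleted, 5 and 17 in the control and 6 and 17 in the cKO myoid-like cells. In vascular cells they were 4 and 22, 0 and 31.2, and 0 and 24.7. The variance over the mean of Acta2 was 2.59, 2.103 and 1.87 in myoid-like cells and 4.07, 11.2 and 10.5 in vascular cells. No Acta2 UMI was found in 7 of 238, 7 of 39 and 25 of 146 vascular cells before thinning. Across thinned cells, Spearman's rank correlation of Acta2 with Tagln was 0.33 over 158, 0.20 over 607 and 0.21 over 2031 myoid-like cells, and 0.53 over 238, 0.85 over 39 and 0.78 over 144 vascular cells. Tagln stood highest of the members in each set but the cKO vascular cells, where Tpm2 reached 0.82. In the other sets Tpm2 lay close below Tagln, at 0.33, 0.19 and 0.19 in myoid-like cells and at 0.53 and 0.85 in Tomato-depleted and control vascular cells. With Tnnt2 the values were 0.25, 0.062 and 0.12 in myoid-like and 0.058, 0.24 and 0.27 in vascular cells. Thinned Tagln averaged 5.64, 3.50 and 2.05 UMIs in myoid-like and 9.42, 7.59 and 7.88 in vascular cells, so its lower counts may weaken the myoid values. These cells share a library and a fixed depth, and the values are a description.

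The vascular cells divided along Rgs5. Of the thinned vascular cells 132, 22 and 100 had an Rgs5 UMI and 106, 17 and 44 did not. Acta2 averaged 10.1, 6.59 and 7.82 UMIs per cell with Rgs5 and 15.5, 23.5 and 19.1 without, a ratio of 0.655 (95% interval 0.609 to 0.704), 0.281 (0.231 to 0.340) and 0.409 (0.370 to 0.451). Tpm2 had a ratio of 0.592, 0.308 and 0.333, and Tagln one of 0.738, 0.438 and 0.461. Of the 8 members plotted, all were lower with Rgs5 in every library, with Des in control the one whose interval held 1 (0.773, 0.420 to 1.42). Tnnt2 had no common direction, with ratios of 1.94, 0.110 and 0.440. Of the 11 vascular naming markers, 8 were divided in this way. Of these, Notch3, Higd1b, Kcnj8, Abcc9, Gja4 and Ndufa4l2 had ratios above 1 in every library. The intervals of Notch3 in control and Abcc9 in the Tomato-depleted library held 1. Cspg4 was also above 1, at 1.06, 1.29 and 1.42, while Mcam lay below 1 in every library, at 0.644, 0.429 and 0.683. The intervals of both held 1 in every library. Ndufa4l2 averaged 0.568, 1.09 and 1.58 UMIs with Rgs5 and 0.0849, 0 and 0.182 without, and Kcnj8, a potassium channel subunit, 0.129, 0.318 and 0.470 against 0.0189, 0 and 0. Both were picked as examples after their values were seen, and all 8 are among the markers that named the class. A thinned cell without an Rgs5 UMI may still express it.

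**Figure D3:**
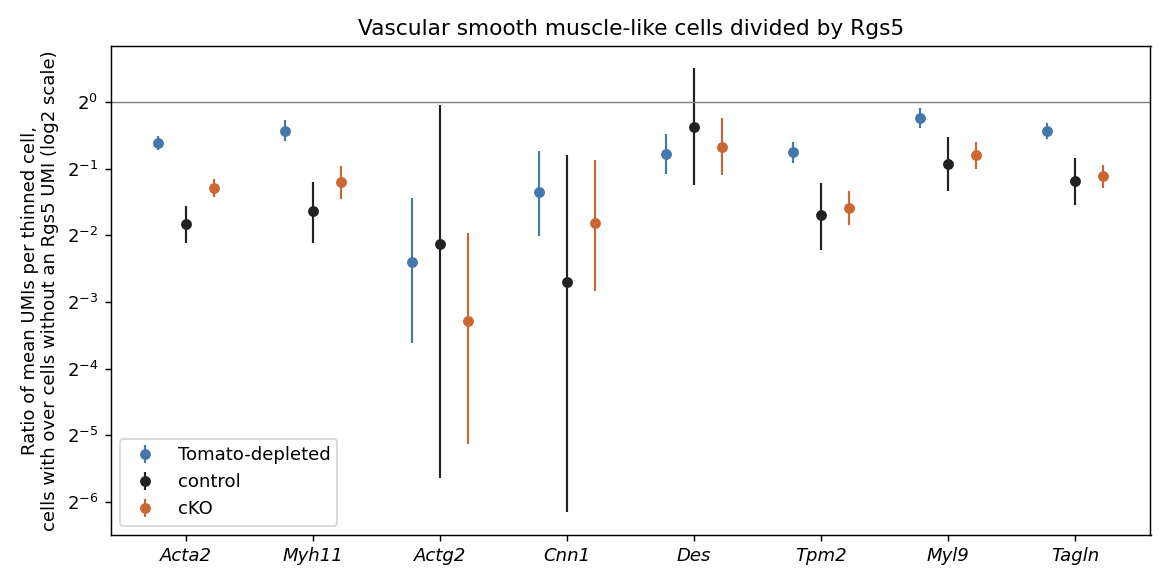
Mean UMIs per thinned vascular smooth muscle-like cell, as the ratio of cells with over cells without an Rgs5 UMI (y axis, log2 scale), for 8 contractile genes (x axis) and 3 libraries (colour), with 95% counting intervals. All 24 points lie below 1, and the interval of Des in control reaches above it.

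The comparison of cKO with control asks how the contractile genes stand in testes whose Sertoli cells lack Scf. In myoid-like cells of cKO, Tagln, Actg2, Des, Myh11 and Cnn1 were lower than in control, Tnnt2 was higher, and Acta2, Myl9 and Tpm2 lay closest to the control level. Tagln was at 2130 CPM in cKO and 3593 in control, a ratio of 0.593 (95% interval 0.580 to 0.606). Actg2 was at 255 and 403 CPM, a ratio of 0.632 (0.591 to 0.676). Des had a ratio of 0.683 (0.652 to 0.715), Myh11 of 0.724 (0.710 to 0.738) and Cnn1 of 0.757 (0.728 to 0.789). Tnnt2 had a ratio of 1.32 (1.28 to 1.37), Acta2 of 1.02 (1.01 to 1.03), Myl9 of 1.02 (0.9998 to 1.04) and Tpm2 of 0.949 (0.925 to 0.973). Thinned to 1000 UMIs per cell, Acta2 lay just below control, at a log2 ratio of -0.0043.

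Of the 9 members with at least 100 counts, 2 were at least 1.5-fold lower and 0 at least 1.5-fold higher in cKO myoid-like cells, against 7.72% and 5.32% of 9769 genes. Thinned, 1 was lower. Their median log2 ratio was -0.40, beside -0.06 over all genes tested. The share of thinned myoid-like cells with a Tagln UMI was 78.8% in cKO and 94.9% in control, and with an Actg2 UMI 20.3% and 29.5%. The Tomato-depleted myoid-like cells, from mice without the Scf deletion, show how far libraries differ without it, beside their differences in age, genotype, sort and tamoxifen. Tagln was 1.60-fold (1.55 to 1.64), Actg2 1.40-fold (1.27 to 1.54) and Tpm2 1.44-fold that of control, and Myh11 0.802-fold. There 1 member was at least 1.5-fold higher and 0 lower, against 4.83% and 12.0% of 6248 genes. Tagln, Actg2, Cnn1, Des, Tpm2 and Myh11 were thus lowest in cKO among the 3 libraries. Both comparisons share the control library, and for Tagln the Tomato-depleted library lay about as far above control as cKO lay below it.

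Of the wider list, 9 of 53 genes with at least 100 counts were at least 1.5-fold lower and 2 at least 1.5-fold higher in cKO myoid-like cells. Over all 9769 genes with at least 100 counts, 7.72% were lower and 5.32% higher. The lower ones were led by Vim (vimentin, an intermediate filament protein) at 612 CPM in cKO and 1596 in control, Csrp2 (a LIM protein) at 537 and 1048, and Synm (synemin, a partner of desmin) at 236 and 477. Itga8, Tagln2, Myh10, Pdlim5 and Ldb3 followed. In the Tomato-depleted library, without the deletion, Csrp2, Itga8, Myh10 and Pdlim5 were also below control, at 0.754-fold, 0.844-fold, 0.714-fold and 0.745-fold. Synm was at 1.02-fold, Tagln2 at 1.27-fold and Ldb3 at 0.963-fold (0.645 to 1.39) there. The higher ones were Myh9, a nonmuscle myosin heavy chain, at 260 and 171 CPM, and Myl12b. The median log2 ratio of the list was -0.14, beside -0.06 over all genes. Of 14 regulators, Tead1 alone was past 1.5-fold, at 98.4 and 167 CPM, a ratio of 0.588, and the regulators' median was 0.07.

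Other values moved with the libraries. The myoid-like cells had a median of 5652 UMIs in cKO and 5249 in control, and 1.49% and 1.29% of UMIs from mitochondria. The 14 dissociation stress genes summed to 26816 CPM in cKO and 22199 in control. Germ cell markers, with 13 of 13 above 0 in both, summed to 84.2 and 645 CPM, and Tcf21 stromal markers, with 7 of 7 and 6 of 7 above 0 (Lum at 0 in control), to 1237 and 755. Sertoli markers summed to 678 and 652 CPM, with 8 of 9 above 0 in cKO (Rhox8 at 0) and 5 of 9 in control (Rhox8, Wt1, Cldn11 and Cst9 at 0). Vascular markers, 11 of 11 above 0 in both, summed to 552 and 416 CPM. Leydig markers summed to 517 and 348 CPM, with 7 of 7 and 2 of 7 above 0 and Cyp17a1 and Insl3 at 0 in control. Endothelial markers summed to 13.5 and 3.17 CPM, with 8 of 9 and 4 of 9 above 0, and immune markers to 8.48 and 27.3, with 9 of 10 above 0 in both. Their part in the differences was not tested, and the genotype cannot be told apart from the library.

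**Figure D4:**
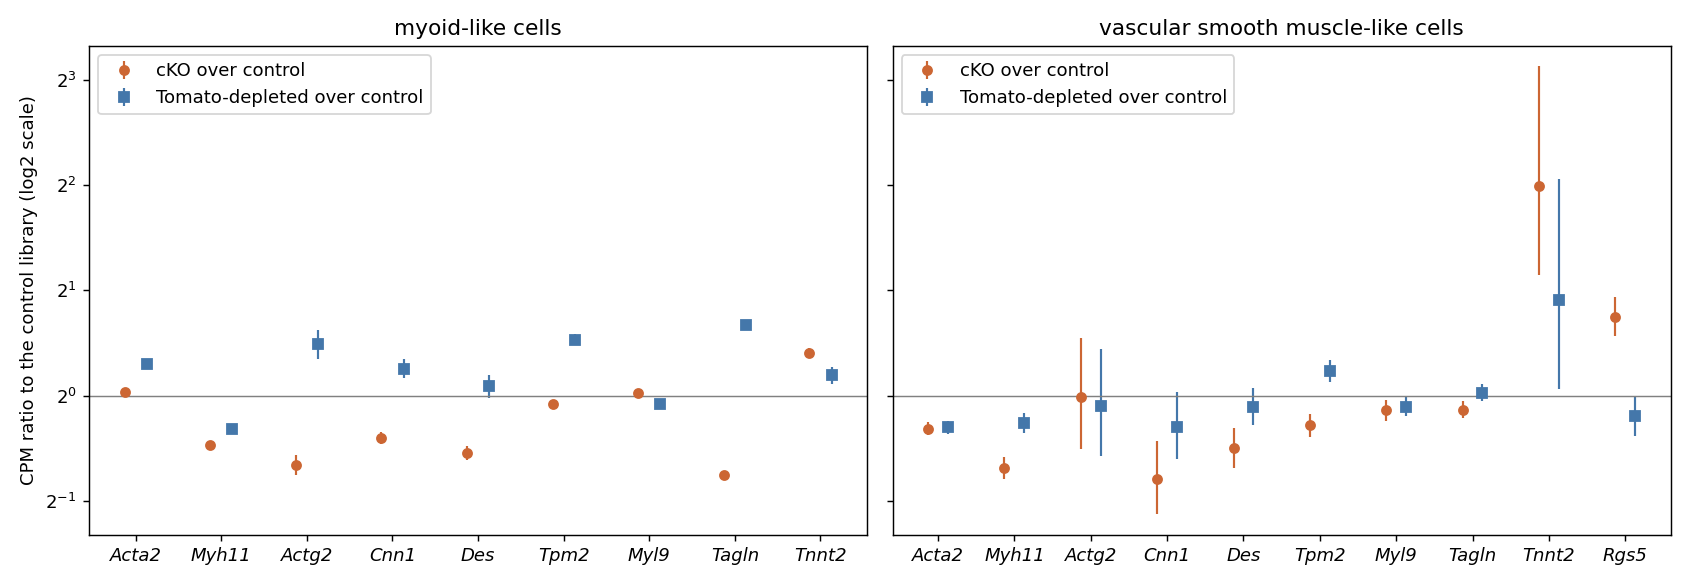
Ratio of CPM to the control library (y axis, log2 scale) for cKO (circles) and for the Tomato-depleted library (squares) in myoid-like (left) and vascular smooth muscle-like (right) cells, with 95% counting intervals. In myoid-like cells Tagln is 0.593 in cKO and 1.60 in the Tomato-depleted library; in vascular cells Rgs5 is 1.68 in cKO, and the interval of Tnnt2 is wide because control has 10 counts.

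In vascular smooth muscle-like cells, Rgs5 and Tnnt2 were at least 1.5-fold higher in cKO than in control and Myh11 and Cnn1 at least 1.5-fold lower, against 10.6% of 1723 genes higher and 5.57% lower. Rgs5 was at 2885 and 1715 CPM, a ratio of 1.68 (95% interval 1.48 to 1.92). Tnnt2 was at 270 and 64.9 CPM, a ratio of 3.96 (2.21 to 8.79), on 203 and 10 counts. Myh11 had a ratio of 0.621 (0.579 to 0.667), Cnn1 of 0.579 (0.458 to 0.743), Des of 0.708 (0.622 to 0.810) and Acta2 of 0.804 (0.770 to 0.841). Tpm2, Myl9 and Tagln lay between 0.821 and 0.912, and Actg2 was at 0.991 (0.703 to 1.46). In the Tomato-depleted library the ratio to control was 0.872 (0.769 to 0.996) for Rgs5, 0.835 (0.782 to 0.892) for Myh11, 0.813 (0.658 to 1.02) for Cnn1 and 1.88 (1.05 to 4.17) for Tnnt2. Tnnt2 was thus past 1.5-fold there in the same direction, on 191 and 10 counts, and the cKO vascular cells had the highest Rgs5 level and the lowest Myh11 level of the 3. Of the 47 genes of the wider list, 9 were at least 1.5-fold lower, led by Vim at 2344 and 5215 CPM and Flna (filamin A) at 1067 and 1740, and 4 higher. The list's median log2 ratio was -0.19, beside 0.05 over all genes. Of 6 regulators with at least 100 counts, 0 were past 1.5-fold in either direction.

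Thinned to 1000 UMIs per cell, 1 member with at least 100 counts was past 1.5-fold higher and 0 lower. Tnnt2 and Cnn1 then had under 100 counts, with log2 ratios of 1.65 and -0.37, Myh11 stood at -0.41, and Des, Myl9 and Tagln lay above control, at log2 ratios of 0.10, 0.032 and 0.051. These values rest on 39 control cells, and beside them stands the share of vascular cells with an Rgs5 UMI, which was 69.4% of thinned cells in cKO and 56.4% in control. Among thinned cells with an Rgs5 UMI, 100 in cKO and 22 in control, the ratio was 1.03 (0.783 to 1.40) for Myh11, 1.18 (0.993 to 1.43) for Acta2 and 1.02 (0.662 to 1.68) for Des. Among cells without one, 44 and 17, it was 0.763 (0.623 to 0.942), 0.815 (0.723 to 0.921) and 1.25 (0.797 to 2.101). The log2 ratio of Myh11 over all thinned cells of the class was -0.41. The dissociation stress genes summed to 21178 CPM in cKO and 15983 in control in these cells, and germ cell markers to 59.8 and 779, with 9 of 13 and 10 of 13 above 0. Their part was not tested.

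In the other somatic cells most of the genes were low. In Tcf21 stromal-like cells Acta2 was at 245, 493 and 345 CPM and was found in 7.32%, 9.17% and 15.2% of cells, while Des was at 159, 193 and 149 CPM and was found in 45.5%, 36.7% and 43.6%. The counts of Acta2 were 1.54-fold (95% interval 1.17 to 2.03), 2.56-fold (1.92 to 3.46) and 2.32-fold (2.16 to 2.49) those of Des, against 15.3-fold, 13.2-fold and 19.8-fold in myoid-like cells. The Acta2 UMIs of the Tomato-depleted library came from 9 of 123 cells, while those of Des came from 56. Myl9 was at 196, 362 and 379 CPM, and the counts of Acta2 were 1.25-fold, 1.36-fold and 0.912-fold those of Myl9, against 3.06-fold, 2.36-fold and 2.36-fold in myoid-like cells. Against Myh11 they were 4.67-fold, 2.82-fold and 4.13-fold, nearer to the 3.58-fold, 2.33-fold and 3.29-fold of myoid-like cells.

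In the 317 Sertoli-like cells of the Tomato-depleted library Myl9 was at 623 CPM and was found in 76.0% of cells, while Acta2 was at 271 CPM in 12.3%. The counts of Acta2 were 0.435-fold (0.385 to 0.492) those of Myl9, against 3.06-fold in myoid-like cells. The Sertoli-like cells of control and cKO stood apart, with Acta2 at 4890 and 3179 CPM and Myh11 at 2334 and 844. These were 29 and 45 cells, of which a doublet caller marked 16 and 28, against 4 of 317 in the Tomato-depleted library, and they are not compared with other classes here, although the 45 cells of cKO are 1 of the units of the likeness given last. Their counts of Acta2 were 2.40-fold and 2.44-fold those of Myl9, near the myoid-like values.

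In the 37 Leydig-like cells of cKO, Tnnt2 was at 144 CPM (104 to 194), found in 8 cells, and Acta2 at 13.4 CPM. In the 25 Leydig-like cells of the Tomato-depleted library Tnnt2 had 0 counts, which allows up to 67.5 CPM, and control had 2 such cells. Rgs5 was at 29.3 CPM (14.1 to 54.0) in the 64 endothelial-like cells of the Tomato-depleted library. Immune-like cells held Acta2 at 19.9, 34.0 and 212 CPM. In cKO their counts of Acta2 were 3.69-fold those of Myh11, 17.3-fold those of Des and 2.103-fold those of Myl9, against 3.29-fold, 19.8-fold and 2.36-fold in myoid-like cells.

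Germ cells, in which these genes are not known as markers, had low levels of most of them. Acta2 was at 10.2, 14.5 and 115 CPM in germ cells of the Tomato-depleted, control and cKO libraries, Tagln at 5.87, 3.19 and 15.1, and Rgs5 at 0.671 and 0.0839 in the first 2 and 0 counts in cKO, which allows up to 1.81 CPM. Actg2 stood higher, at 67.7 CPM (61.3 to 74.7) in the Tomato-depleted and 20.6 (18.1 to 23.4) in the control germ cells. There its counts exceeded those of Acta2, with a ratio of Acta2 to Actg2 of 0.151 (0.113 to 0.198) and 0.703 (0.576 to 0.858), against 23.7 and 27.0 in myoid-like cells. In cKO germ cells Actg2 was at 30.1 CPM and the ratio was 3.82 (2.78 to 5.33), against 43.6 in myoid-like cells. Myl9 was at 43.8, 7.05 and 46.4 CPM in germ cells of the Tomato-depleted, control and cKO libraries. Its counts exceeded those of Acta2 in the Tomato-depleted library alone, with a ratio of Acta2 to Myl9 of 0.234, 2.06 and 2.48.

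Over the 19 units of a class in a library with at least 30 cells, the genes whose level was most like the mean of the 9 contractile members were Fbxl22 (Pearson's r = 0.98), Sh3bgr (0.98), Lmod1 (0.97), Myocd (0.96), Rasl12 (0.96), Casq2 (0.96), Speg, Trabd2b, Synm and Mylk (each 0.95). Lmod1 and Mylk are also myoid naming markers. Myocd, the coactivator of serum response factor, was at 104, 88.8 and 75.2 CPM in myoid-like and 115, 156 and 63.8 in vascular cells. Casq2, a calcium store protein, was at 400, 463 and 412 CPM in myoid-like and 108, 90.9 and 138 in vascular cells. Most like Rgs5 were Gm13861 (0.97), Rnf152 (0.96), Gja4 (0.95), Higd1b (0.94) and Npy1r (0.94), of which Gja4 and Higd1b are vascular naming markers. Npy1r, a neuropeptide Y receptor, was at 341, 357 and 275 CPM in vascular cells and at most 0.883 in myoid-like cells. The units share libraries and depth, and the correlations are a description.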

How the data were processed

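Single testis cells of 3 libraries were analysed. Per the labels and methods, the authors used 10x Chromium 3′ v2 chemistry, Cell Ranger 2.1.1 with GRCm38, and Seurat 3.1. The tables they deposited give raw UMI counts, with genes in rows and cells in columns. Of the merged table of the Tomato-depleted sample only barcodes ending in _1 were used, since its other cells carry the barcodes of the other libraries. The members and gene lists were chosen with earlier results of these data known.

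Genes seen in 3 or more cells were used. Cells were retained if they had between 200 and 3500 detected genes and no more than 10% of UMIs from mitochondria. Seurat 5.3.0 on R 4.3.3 integrated the libraries on 2000 variable genes without the 10 members (20 components, resolution 0.5). Clusters counted as germ where at least 50% of cells had Ddx4, Tnp1 was abundant or germ markers scored highest. The others were clustered again (10 components, resolution 0.08) and named from marker lists, where 3 or more markers of a list were found in 10% of cells or more. Scrublet (scanpy 1.11.5, expected rate 0.06) marked 4.31%, 3.42% and 4.62% of Tomato-depleted, control and cKO cells as doublets, which were kept. Ratios used summed counts with 0.5 added, and genes with at least 100 counts over both sides were set beside the members at 1.5-fold. Cells were thinned to 1000 UMIs without replacement. Named genes beyond the members were the 10 most like the 9 contractile members and the 5 most like Rgs5, among genes with at least 200 counts in contractile cells, on log2(CPM + 1), and those of the wider and regulator lists past 1.5-fold in every library compared, at most 8 by counts. The ratio code was tested on simulated counts with Poisson error only, which checks the code and cannot show how the intervals hold where cells vary more. Depth sets the limits: 3 counts equalled 0.265 CPM in cKO myoid-like and 19.5 CPM in control vascular cells. The alternatives are given at the end.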

Additional observations from a re-analysis of the deposited data

Results flagged for a closer look

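Acta2 differed in direction between the classes under the same contrast. In cKO against control its log2 ratio was -0.31 in the vascular class and 0.031 in the myoid class, and both counting intervals left out 0. With 1 library per genotype the difference between the classes was not tested, the myoid-like value is small, and thinned to 1000 UMIs it lay on the other side of 0 at -0.0043. The counting intervals also leave out the spread between cells. In thinned vascular cells the variance over the mean of Acta2 was 11.2 over 39 control cells and 10.5 in cKO, so the vascular interval is too narrow for that spread.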

How the results depend on the processing

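No paired analysis was possible because each group is 1 library, and for the same reason no library could be left out. Over 12 alternatives, the counts of members past 1.5-fold stayed within 1.5 times except as follows. In vascular cells of cKO against control, 1 member was lower without an upper limit on genes and 1 with a limit of 7500, and thinned to 1000 UMIs 1 was higher and 0 lower, with Tnnt2 (log2 ratio 1.65) and Cnn1 (-0.37) under 100 counts. In myoid-like cells thinning left 1 lower. Of vascular over myoid-like cells, 1 was higher in the Tomato-depleted library when cells were divided by an Rgs5 UMI (Rgs5 itself), and 7 in control when centred on the median of all genes. Other causes were not tested.

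Among ratios whose counting interval left out no difference, directions turned as follows, in log2. Thinned, cKO over control gave -0.0043 for Acta2 in myoid-like cells, and 0.10 for Des, 0.032 for Myl9 and 0.051 for Tagln in vascular cells. Divided by an Rgs5 UMI, Acta2 of vascular over myoid-like cells in cKO was -0.055. Divisions of thinned vascular cells were added after the data were seen. With an Rgs5 UMI, cKO over control was 0.24 for Acta2, 0.047 for Myh11, 0.54 for Cnn1, 0.027 for Des, 0.083 for Tpm2, 0.21 for Myl9 and 0.25 for Tagln. Without one it was 0.33 for Des, 0.087 for Myl9 and 0.18 for Tagln. Among the members in the myoid-like cells, Tagln, Actg2, Des, Myh11, Cnn1 and Tnnt2 kept their direction between cKO and control in all 12 alternatives. Of ratios whose interval held no difference, Acta2 of vascular over myoid-like cells in the Tomato-depleted library ran from -0.19 to 0.17, and Actg2 of cKO over control in vascular cells and Rgs5 in myoid-like cells (2 and 0 counts) also lay on both sides of 0. The 39 control vascular cells limit what can be seen in that class.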
